A study of Mus musculus with 10 samples.

Results

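The Iroquois genes of the mouse form 2 clusters of 3 genes each. The IrxA cluster lies on chromosome 13 and holds Irx1, Irx2 and Irx4, and the IrxB cluster lies on chromosome 8 and holds Irx3, Irx5 and Irx6. All 6 genes were taken by symbol from the tables of ChIP-seq reads, where they are 6 of 24500 genes. H3K27me3, the repressive trimethyl mark on lysine 27 of histone H3, was read in the promoter window of each gene, and EZH2, the enzyme that places the mark, was read over the gene.

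Iroquois proteins are transcription factors of the TALE class, a branch of homeodomain proteins with an insertion between the first helices of the homeodomain. They divide fields of cells during development. Irx3 sets a boundary between progenitor domains of the neural tube, Irx4 marks the ventricles of the heart, Irx5 shapes the gradient of repolarization in the heart wall, and Irx6, like Irx5, is used in bipolar cells of the retina. Irx1 and Irx2 are used in the developing lung, limb and nervous system. In embryonic stem (ES) cells such regulators are silent and held by Polycomb repressive complex PRC2, of which EZH2 is the catalytic subunit and which gathers at promoters rich in CpG dinucleotides.

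The ChIP-seq libraries came from E14 cells, a mouse ES cell line, with the strain given as 12910la. Control cells were wild-type, and the line described as ex14D-Ezh2 carried a CRISPR-Cas9 in/del in exon 14 of Ezh2, so that the SET domain of the full-length protein is disrupted and the isoform that skips exon 14 remains. The labels give the genotype of the mutant libraries as an Ezh2 knockout of exon 14. Their titles read Ezh2KO, a name that was also used for a separate knockout line. The libraries are called ex14D here after the genotype label, and from the labels alone the lines cannot be told apart. Each genotype had 2 libraries of each antibody and 1 input, of chromatin without an antibody, so that there were 10 libraries. Nothing in the labels says whether replicates came from separate cultures or clones, and p-values measure only the spread between these libraries.

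Each EZH2 library had 13628137 to 18403892 reads on genes, each H3K27me3 library had 594289 to 1450937, and the inputs had 409371 and 416778. Values are given as CPM, the usual scaling of counts to the reads on genes of each library. Promoters of 8 genes used in ES cells, such as Pou5f1 and Nanog, had log2 H3K27me3 over input between -4.69 and 1.81, with the highest value at Klf4, the only promoter of the 8 that was at least 2-fold over input in both control libraries. Promoters of 4 genes active in every cell lay between -4.52 and -1.82 on the same scale. Reads at promoters cannot show how strongly the cells transcribed them.

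Promoter sequences are shown because CpG density is the property by which PRC2 targets are known. The RefSeq promoter table for GRCm38.p6 matched 3 of the 6 members, and the 250 bases before the start site of each are printed 5′ to 3′ along the gene's strand, with each CpG in capitals. They lie at chr8:91801655-91801904 on the minus strand for Irx3, at chr13:72628570-72628819 on the plus strand for Irx2 and at chr13:73260247-73260496 on the plus strand for Irx4.
Irx3: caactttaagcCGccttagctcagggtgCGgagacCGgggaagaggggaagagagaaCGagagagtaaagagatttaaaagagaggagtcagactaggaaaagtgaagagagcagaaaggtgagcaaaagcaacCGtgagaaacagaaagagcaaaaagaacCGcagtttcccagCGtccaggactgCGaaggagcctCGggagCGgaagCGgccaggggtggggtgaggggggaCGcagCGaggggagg
Irx2: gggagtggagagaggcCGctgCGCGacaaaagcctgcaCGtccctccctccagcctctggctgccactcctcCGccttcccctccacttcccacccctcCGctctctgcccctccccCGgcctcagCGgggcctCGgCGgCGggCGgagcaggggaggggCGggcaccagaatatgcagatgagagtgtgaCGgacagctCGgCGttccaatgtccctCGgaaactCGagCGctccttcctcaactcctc
Irx4: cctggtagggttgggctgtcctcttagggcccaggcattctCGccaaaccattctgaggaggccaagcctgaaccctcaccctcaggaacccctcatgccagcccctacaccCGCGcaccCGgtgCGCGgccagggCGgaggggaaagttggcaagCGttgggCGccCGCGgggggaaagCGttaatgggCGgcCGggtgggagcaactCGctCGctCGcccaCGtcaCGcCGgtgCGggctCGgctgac

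Irx4 held 22 CpG in this stretch, Irx2 held 19 and Irx3 held 13. The median over the 32851 promoters of the table was 6. The share of promoters with fewer CpG was 85.2% for Irx4, 80.3% for Irx2 and 68.5% for Irx3. The motif GGGCGG, searched on both strands, occurred 2 times before Irx2, 2 times before Irx4 and 0 times before Irx3, and 32.7% of all promoters in the table held it at least 1 time.

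In control cells all 6 Irx promoters carried H3K27me3. Each was at least 2-fold over input in both control libraries, a level that 11.3% of all 24500 promoters reached, and each was at least 2-fold over input in both ex14D libraries, as 9.14% of promoters were. In control, the mean log2 H3K27me3 over input, with 1 CPM added to each value, was 2.73 ± 0.22 at Irx1, 2.68 ± 0.01 at Irx4, 2.13 ± 0.18 at Irx3, 2.83 ± 0.37 at Irx5 and 2.66 ± 0.05 at Irx6 (SD, n = 2). The median over all promoters was -1.51. In ex14D the same values were 3.62 ± 0.12, 3.66 ± 0.16, 3.12 ± 0.03, 4.02 ± 0.05 and 2.81 ± 0.13 (SD, n = 2), against a median of -1.93 over all promoters. These 5 promoters ranked above 94.2% to 97.3% of promoters in control and above 96.8% to 99.0% in ex14D. With 1 input per genotype, the ratio over input was not tested between genotypes, and the input counts at these promoters were 14 to 33 reads. With CPM over all counted reads, the control values became 3.45 at Irx1, 3.47 at Irx4, 3.10 at Irx3, 3.54 at Irx5 and 3.21 at Irx6, and the ex14D values 4.46, 4.35, 4.16, 4.65 and 3.59. With the mean of both inputs, Irx4 had 3.00 in control and 3.24 in ex14D, and all 6 promoters stayed at least 2-fold over input under both settings.

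Irx2 stood apart because few reads were assigned to it. Its start site at 72628820 on chromosome 13 lies 256 bp from that of Gm20554, a long noncoding RNA on the other strand, and the windows of both genes share 745 bp of 1000. Reads in a shared stretch are assigned to no gene by htseq-count, and 255 bp of the Irx2 window were left. The Irx2 input counts were 0 in control and 1 in ex14D. Taking 3 reads as the limit that a count of 0 allows in the control input, Irx2 was at least 5.05-fold and at least 5.97-fold over input in the control libraries. In ex14D the ratios to input were 26.7 (exact 95% interval 4.68 to 1066) and 19 (3.28 to 765), where the interval covers counting error only. The control values are limits set by 3 reads and the ex14D values are ratios to 1 read, so they cannot be compared. With 1 CPM added, as for the other members, the mean log2 of Irx2 was 5.37 ± 0.17 in control and 4.02 ± 0.34 in ex14D (SD, n = 2). With CPM over all counted reads these means became 1.74 and 2.23, so their order depended on the scaling. Of the 6 members, 1 had a window overlapping that of another gene, as had 14.4% of all placed windows.

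**Figure D1:**
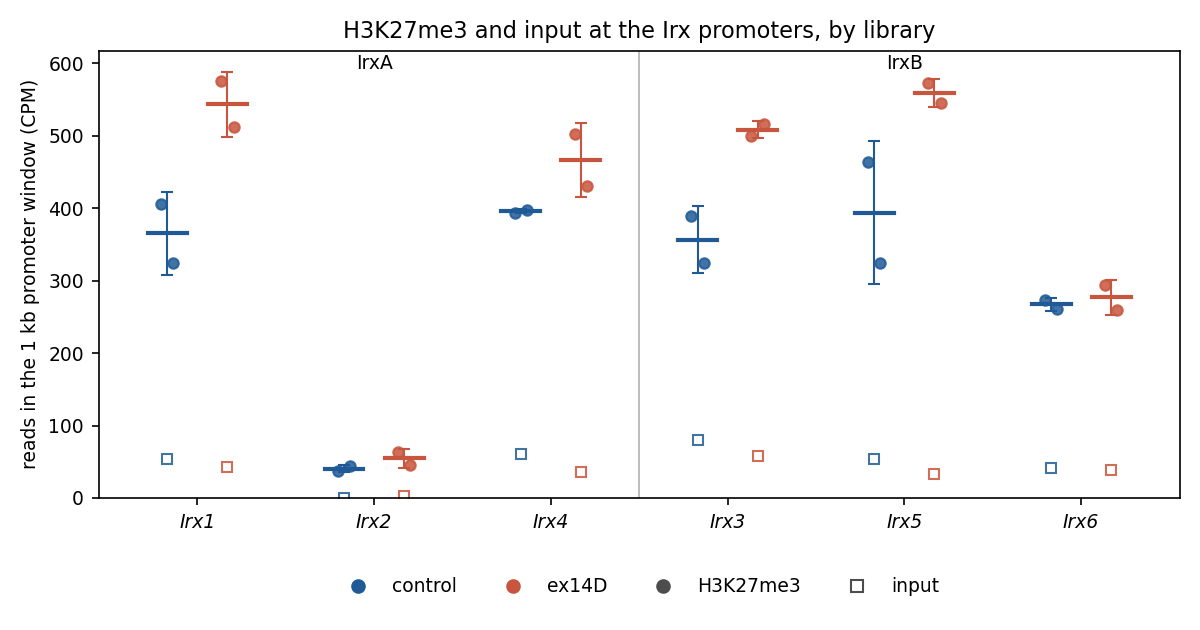
Reads in the 1 kb promoter window of each Irx gene, in CPM, for H3K27me3 libraries (filled circles, with the mean as a bar and ± SD, n = 2 per genotype) and inputs (open squares, n = 1 per genotype). At Irx1, Irx2, Irx4, Irx3 and Irx5 both ex14D libraries lie above both control libraries, and at Irx6 the genotypes overlap.

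After TMM scaling, H3K27me3 was higher in ex14D at 4 of the 6 Irx promoters, Irx1, Irx4, Irx3 and Irx5, by edgeR's quasi-likelihood test at an adjusted p under 0.05. Irx2 and Irx6 did not pass. By the same test 5.83% of the 14883 promoters tested were higher. Among the 2658 tested promoters marked in control, 28.4% were higher. The median log2 fold change was 0.92 over the 6 members, 0.33 over the promoters marked in control and -0.03 over all promoters tested. Both ex14D libraries lay above both control libraries in CPM at 5 of the 6 Irx promoters and at 9.10% of all promoters tested. The paper reports less total H3K27me3 in ex14D cells by Western blot. At several developmental genes, Irx genes not among them, it reports less of the mark by ChIP-PCR. It also reports lower EZH2 at target genes by ChIP-seq, with most target genes still methylated. The fold changes given here are in relative reads after TMM scaling, which does not give the amount of mark per cell. They were smaller with reads on genes as the only scaling, as given below.

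Irx1 (chromosome 13, 71958232 to 71963723, minus strand) had 406 and 325 CPM in the control libraries and 575 and 512 CPM in the ex14D libraries. The inputs had 53.7 CPM in control and 43.2 CPM in ex14D. Both ex14D libraries were higher than either control library. Its log2 fold change was 1.02 with a standard error of 0.20 (edgeR's quasi-likelihood test, adjusted p = 0.001). Irx4 (chromosome 13, 73260497 to 73269620, plus strand) had 394 and 398 CPM in control and 503 and 431 CPM in ex14D. The control libraries nearly coincided, and the ex14D libraries lay above them but apart from each other. Its log2 fold change was 0.68 with a standard error of 0.20 (edgeR's quasi-likelihood test, adjusted p = 0.0237). Irx2 (chromosome 13, 72628820 to 72634196, plus strand) had 37.0 and 43.7 CPM in control and 64.1 and 45.7 CPM in ex14D, from 22 to 93 reads. The lower ex14D library was close to the higher control library. The log2 fold change of 0.88 with a standard error of 0.33 did not pass the threshold (edgeR's quasi-likelihood test, adjusted p = 0.0976).

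In the IrxB cluster, Irx3 (chromosome 8, 91798511 to 91801654, minus strand) had 389 and 324 CPM in control and 500 and 517 CPM in ex14D. The genotypes were separated by more than the spread within either of them. The log2 fold change of Irx3 was 0.96 with a standard error of 0.20 (edgeR's quasi-likelihood test, adjusted p = 0.00166). Irx5 (chromosome 8, 92357796 to 92361456, plus strand) had 464 and 324 CPM in control and 573 and 545 CPM in ex14D. Its control libraries were the most distant pair among the members, with a mean of 394 ± 99.0 CPM (SD, n = 2). The log2 fold change of Irx5 was 0.96 with a standard error of 0.21 (edgeR's quasi-likelihood test, adjusted p = 0.00273). Irx6 (chromosome 8, 92674289 to 92680956, plus strand) had 274 and 261 CPM in control and 294 and 260 CPM in ex14D, and these overlapped. Its log2 fold change of 0.49 with a standard error of 0.20 did not pass the threshold (edgeR's quasi-likelihood test, adjusted p = 0.136). Among windows that share no bases with another gene, Irx6 had the lowest mean in control, at 268 ± 9.10 CPM, below Irx3 at 357 ± 45.5, Irx1 at 365 ± 56.6, Irx5 at 394 ± 99.0 and Irx4 at 396 ± 3.00 (SD, n = 2). The last 4 did not differ by more than their spread.

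The size of the difference depended on how libraries were scaled, and no added standard ties the reads to the amount of mark per cell. With reads on genes as the only scaling, the median over all promoters tested was -0.47 and that of Irx1 was 0.58, and Irx1 alone of the members passed the threshold (edgeR's quasi-likelihood test, adjusted p = 0.0366). Under that scaling Irx3 had 0.52 (adjusted p = 0.0592), Irx5 had 0.51 (adjusted p = 0.0691), Irx2 had 0.43, Irx4 had 0.24 and Irx6 had 0.05 on the log2 scale. With all counted reads as library size the median over all promoters was -0.15, and Irx1, Irx3 and Irx5 passed at 0.90, 0.83 and 0.83. All 6 values were above 0, and above the median of all promoters, under each of the 4 scalings shown in the plot of fold changes. Without control replicate 2, which left a lone control library assumed to vary like the ex14D libraries, none of the 6 passed edgeR's quasi-likelihood test. The log2 fold changes were then 0.82 at Irx1, 0.79 at Irx3, 0.67 at Irx5 and 0.65 at Irx4, with adjusted p = 0.0823, 0.0905, 0.125 and 0.159. Irx4 also lost its call without ex14D replicate 1 (0.58, adjusted p = 0.378), without ex14D replicate 2 (0.80, adjusted p = 0.135) and with the replicate number as a block (0.68, adjusted p = 0.0614).

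**Figure D2:**
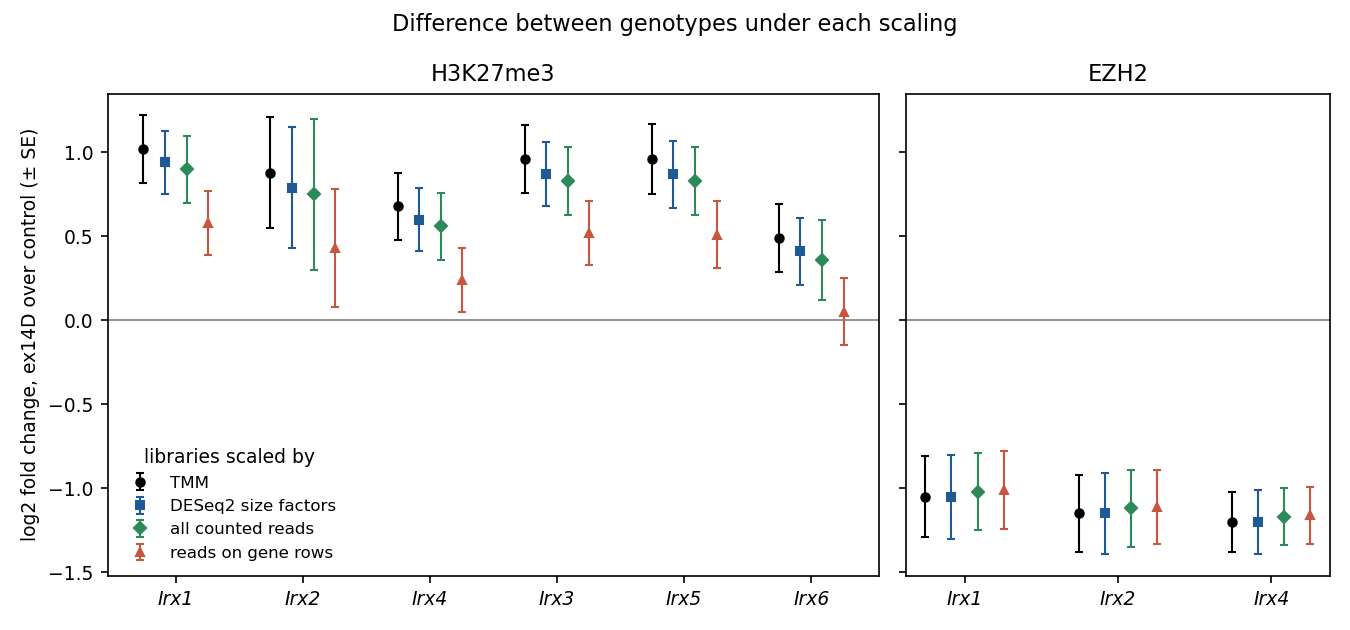
The log2 fold change of ex14D over control with its standard error, by edgeR, for H3K27me3 at 6 Irx promoters (left) and EZH2 at 3 Irx genes (right), 2 libraries per genotype, under 4 scalings of the libraries. The H3K27me3 values run from 0.05 at Irx6 to 1.02 at Irx1 and all lie above 0, and the EZH2 values run from -1.20 to -1.01.

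EZH2 reads went the other way in the IrxA cluster. All 3 IrxA genes that could be tested had fewer EZH2 reads in ex14D, where 7.88% of the 13401 genes tested were lower. The median log2 fold change was -1.15 over the 3 genes and 0.02 over all genes tested, and 1.91% or fewer of the tested genes had a log2 fold change below those of Irx1, Irx2 and Irx4. Both ex14D libraries lay below both control libraries at all 3 genes and at 18.0% of all genes tested. The EZH2 counts followed gene length (Spearman's rho of 0.887 to 0.925 across 13879 genes, which are not independent replicates), so these values cover the whole gene and not the promoter. The 13401 genes were not limited to those bound by EZH2. Stretches called as EZH2 domains lay over 10.4% of promoters in all 4 libraries. Where the 3 genes rank among genes with such a domain was not computed.

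Irx1 had 184 and 184 CPM of EZH2 in the control libraries and 119 and 63.9 CPM in the ex14D libraries. Irx2 had 170 and 172 CPM in control and 103 and 56.1 CPM in ex14D. Irx4 had 133 and 133 CPM in control and 73.8 and 46.4 CPM in ex14D. At each gene the control libraries nearly coincided and the ex14D libraries differed from each other, with replicate 2 the lower. The log2 fold change was -1.05 with a standard error of 0.24 at Irx1, -1.15 with 0.23 at Irx2 and -1.20 with 0.18 at Irx4 (edgeR's quasi-likelihood test, adjusted p = 0.0379, 0.024 and 0.00861). These correspond to 48.3%, 45.1% and 43.6% of the control reads after TMM scaling, which does not give the amount of EZH2 per cell. Per kb of gene, EZH2 in control was 33.5 ± 0.0677 CPM per kb at Irx1, 31.8 ± 0.159 at Irx2 and 14.6 ± 0.000343 at Irx4, and in ex14D it was 16.7 ± 7.16, 14.8 ± 6.21 and 6.59 ± 2.13 (SD, n = 2). Irx1 lay above Irx2 by more than their spread in control and not in ex14D, and Irx4 was the lowest in both.

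The EZH2 calls depended on both control libraries being present. When either control library was left out, none of the 3 genes passed edgeR's quasi-likelihood test, although the log2 fold changes stayed between -1.20 and -1.05. Their adjusted p in edgeR was then 0.201 to 0.387, with the lone control library assumed to vary like the ex14D libraries. Without ex14D replicate 1 the log2 fold changes were -1.59 at Irx1, -1.67 at Irx2 and -1.59 at Irx4, and without ex14D replicate 2 they were -0.66, -0.76 and -0.89. With DESeq2 in place of edgeR, Irx4 passed (adjusted p = 1.99e-06), and Irx1 and Irx2 did not (adjusted p = 0.254 and 0.133).

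**Figure D3:**
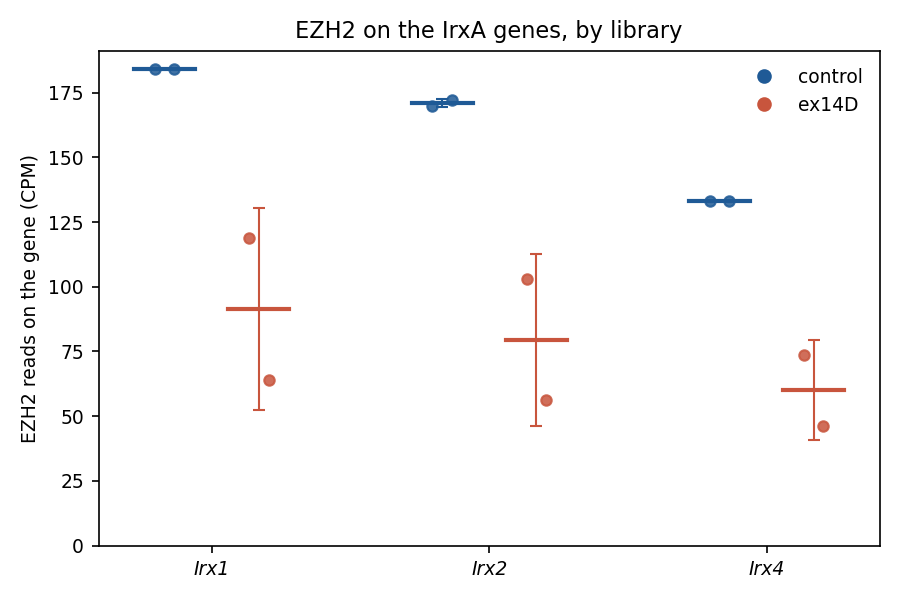
EZH2 reads on Irx1, Irx2 and Irx4 in CPM, by library, with the mean as a bar and ± SD (n = 2 per genotype). The control libraries lie between 133 and 184 CPM and the ex14D libraries between 46.4 and 119 CPM, and at each gene both ex14D libraries are below both control libraries.

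For Irx3, Irx5 and Irx6 every EZH2 library lists 0 reads, and they were not compared. They belong to a run of 559 neighbouring genes on chromosome 8, from Ido2 at 24.6 Mb to Cx3cl1 at 94.8 Mb, that are all listed at 0. Of all gene rows, 43.2% are listed at 0 in every EZH2 library, and of the genes of chromosome 8, 54.0% are. The H3K27me3 tables of the same genes hold 163 to 832 reads per library for the 3 promoters. The domains described next show EZH2 over the same genes, so the 0 was not read as an absence of EZH2.

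Peaks and domains give a view of the clusters that does not use the counts. MACS2 broad peaks of H3K27me3 lay over all 6 Irx promoters in all 4 libraries, as over 15.1% of the 24347 promoters placed on GRCm38. hiddenDomains domains of EZH2 also lay over all 6 promoters in all 4 libraries, as over 10.4% of promoters. The peaks were broad for these data. Those over the Irx promoters were 9.40 to 21.8 kb wide, and the median peak in a library was 1.60 to 2.17 kb wide. They covered the whole gene at Irx1, Irx2, Irx4, Irx3 and Irx5 in all 4 libraries, and at least 83.1% of Irx6. The widest lay over Irx2 in 3 of the 4 libraries and over Irx4, at 21.8 kb, in control replicate 2. The Irx2 peak was 20.2 and 21.3 kb wide in the control libraries and 21.3 and 19.7 kb wide in the ex14D libraries, from 6.95 to 7.44 kb before the start site to 7.03 to 8.49 kb past the end of the gene. The narrowest lay over Irx6, with 9.46 and 11.6 kb in control and 11.5 and 9.40 kb in ex14D.

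Peak widths gave no separation of the genotypes except at Irx3. The Irx3 peak was 15.2 and 16.0 kb wide in control and 14.5 and 13.8 kb wide in ex14D. Both ex14D peaks were narrower than both control peaks there and at 38.0% of the promoters with a peak in all 4 libraries. Fold enrichment of the peaks, as the peak caller gave it, was higher in both ex14D libraries at all 6 members, and at 44.4% of these promoters. Irx1 had 3.46 and 11.4 in control against 22.3 and 27 in ex14D, Irx3 had 2.15 and 5.48 against 12.2 and 12.5, and Irx6 had 2.43 and 2.28 against 4.61 and 4.47. Over all peaks of a library the median fold enrichment was also higher in ex14D, at 4.77 and 5.50, than in the control libraries, at 3.30 and 3.04. Both control libraries had fewer counted reads, at 10525739 and 15683174, than the ex14D libraries, at 19151253 and 18184514. Any effect of this depth on the peaks was not tested. Within its own library, the Irx1 peak was above 52.8% and 97.7% of peaks in control and above 94.3% and 94.8% in ex14D. The Irx4 peak was above 40.4% and 52.5% in control and 54.3% and 52.9% in ex14D. Differences of fold enrichment and width were not tested.

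EZH2 domains were narrower in ex14D at 4 of the 6 members, where both ex14D domains were narrower than both control domains, as they were at 44.3% of the promoters with a domain in all 4 libraries. The domain over Irx2 was 20 and 20 kb wide in control and 18 and 18 kb wide in ex14D. The domain over Irx3 was 12 and 12 kb wide and then 11 and 11 kb wide, that over Irx5 was 13 and 14 kb and then 11 and 11 kb, and that over Irx6 was 8 and 8 kb and then 6 and 6 kb. At Irx1, with 10 and 12 kb in control and 10 and 9 kb in ex14D, and at Irx4, with 14 and 15 kb in control and 14 and 13 kb in ex14D, the genotypes touched. Domain edges were placed in steps of 1 kb, so the differences are 1 to 3 steps.

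**Figure D4:**
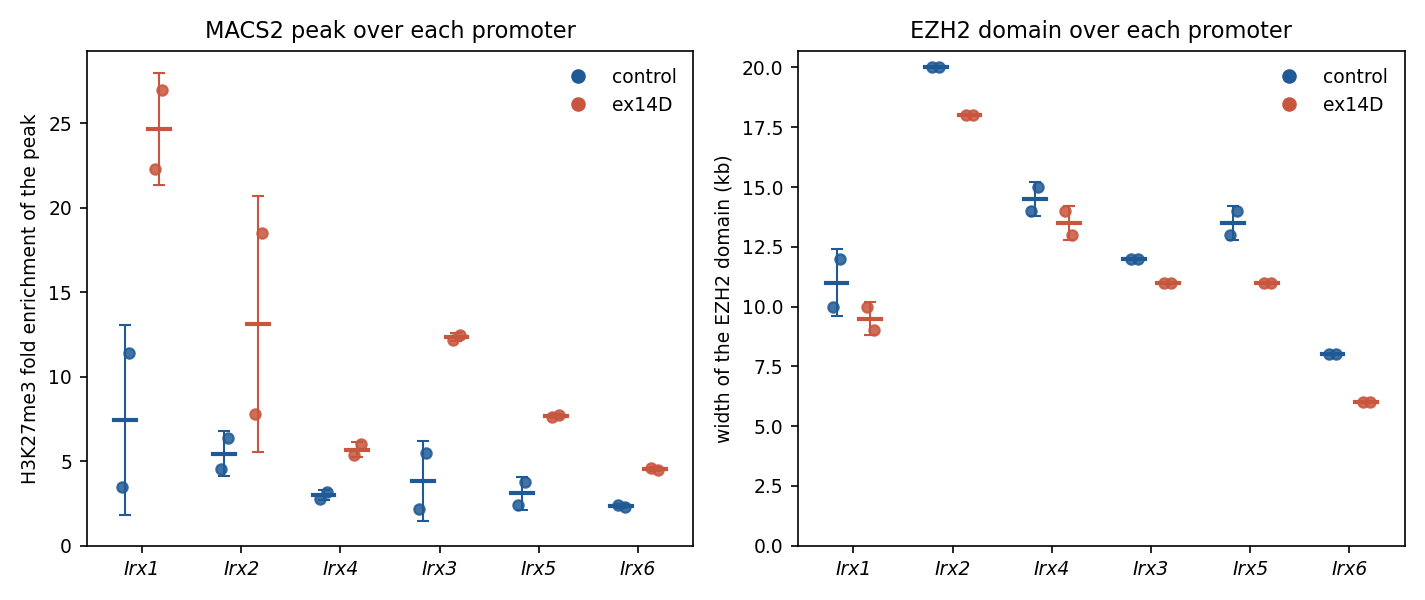
Fold enrichment of the H3K27me3 peak (left) and width in kb of the EZH2 domain (right) over each Irx promoter, by library, with the mean as a bar and ± SD (n = 2 per genotype). Fold enrichment is higher in both ex14D libraries at all 6 genes, up to 27 at Irx1, and the EZH2 domains at Irx2, Irx3, Irx5 and Irx6 are narrower in both ex14D libraries. Both control H3K27me3 libraries had fewer counted reads than both ex14D libraries.

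Each cluster was then read as a locus, from 100 kb outside its first gene to 100 kb outside its last. Most of both loci lay outside called peaks, which need not mean that the mark was absent there. In the IrxA locus of 1511 kb, H3K27me3 peaks covered 62.4 and 89.1 kb in control and 80.3 and 66.1 kb in ex14D. In the IrxB locus of 1082 kb they covered 53.1 and 66.7 kb in control and 67.6 and 51.8 kb in ex14D. With peaks of q under 0.001 alone, the mean cover of the IrxB locus was 26.8 kb in control and 59.7 kb in ex14D, and that of the IrxA locus 65.1 and 66.2 kb. That cut left out the peaks over Irx3, Irx5 and Irx6 in control replicate 1 (−log10 q of 1.81, 2.41 and 2.44). It also left out the Irx6 peak of control replicate 2 (2.81). Both control libraries had fewer counted reads than both ex14D libraries, and an effect of depth on this cover was not tested. With all peaks, the genotypes overlapped in both loci (two-sided exact permutation test, p = 1 in each, n = 2 per genotype). EZH2 domains covered 44 and 50 kb of the IrxA locus in control and 42 and 40 kb in ex14D, and 37 and 38 kb of the IrxB locus in control and 31 and 30 kb in ex14D. In both loci the ex14D libraries were below the control libraries, at p = 0.333, the smallest that the exact permutation test allows with 2 libraries against 2, so this test could not reach the threshold in any of these comparisons. Over the whole genome, EZH2 domains covered 21.6 and 35.4 Mb in control and 15.1 and 19.7 Mb in ex14D.

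**Figure D5:**
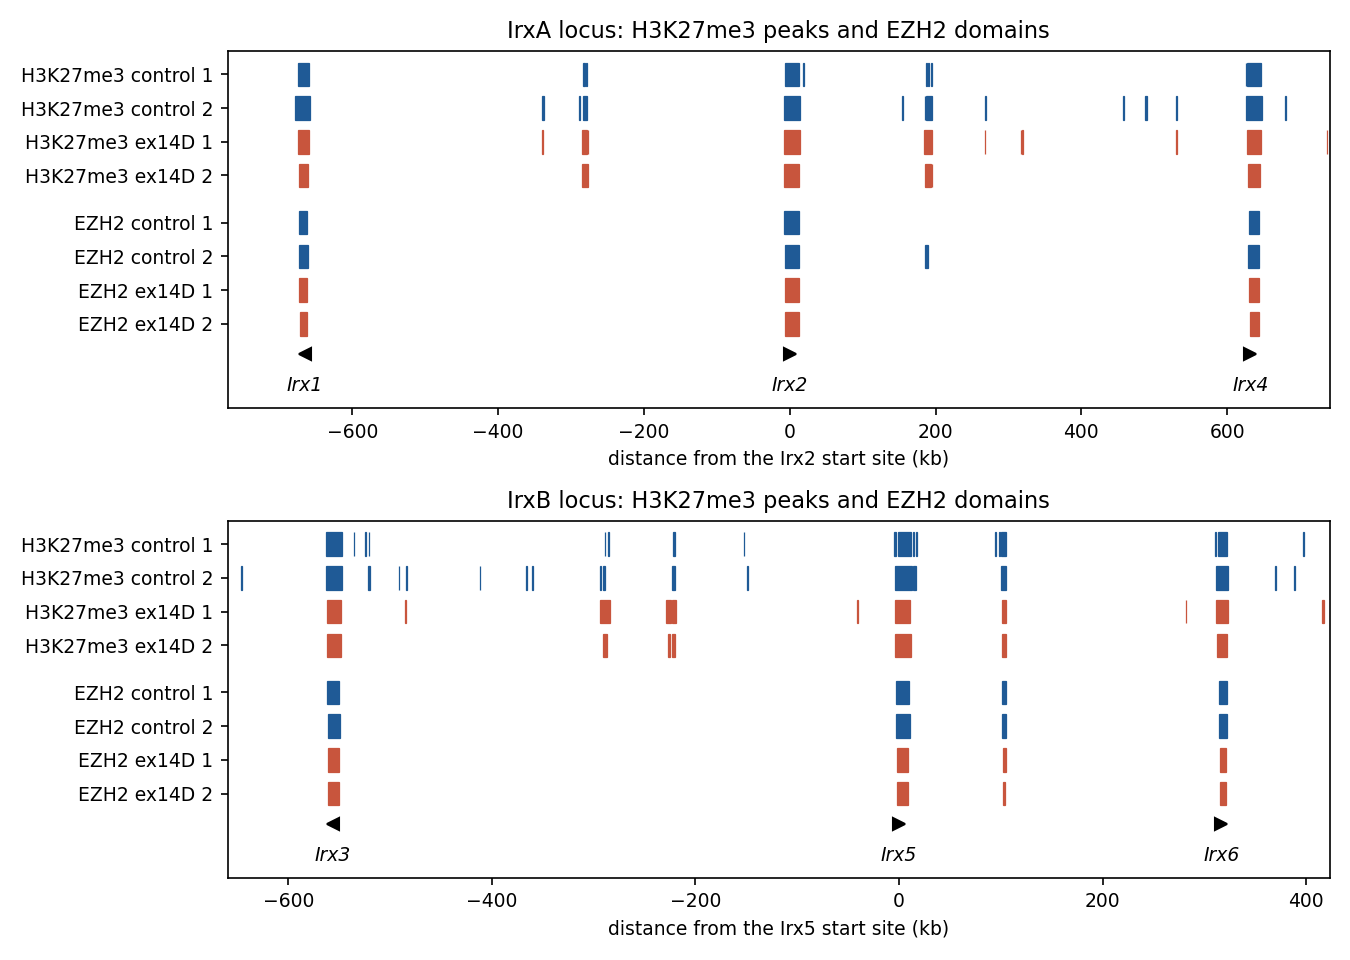
H3K27me3 peaks and EZH2 domains (boxes, control blue and ex14D red) in each library across the IrxA locus (top) and the IrxB locus (bottom), with arrowheads for the Irx start sites and their direction. The x axis is the distance in kb from the start site of Irx2 or Irx5. The broad boxes at the 6 genes are present in all 8 libraries, and a smaller box about 101 kb past the Irx5 start site is present in all 8 as well.

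Between the genes, peaks of all 4 H3K27me3 libraries met at 5 places of at least 0.3 kb, of which 1 also had an EZH2 domain in all 4 EZH2 libraries. Stretches shared by all libraries were joined across short gaps. That place lies between Irx5 and Irx6, at chr8:92458677-92462534, with no gene of RefSeq or GENCODE vM21 in it. Its nearest edge is 101 kb from the Irx5 start site. The control libraries gave it a fold enrichment of 1.91 and 1.73 and the ex14D libraries 6.58 and 8.42. Its EZH2 domain was 4 and 4 kb wide in control and 3 and 2 kb wide in ex14D. CpG stood at 34.2 per kb there, against 9.03 per kb on chromosome 8 as a whole. The shared regions at the Irx genes, joined in the same way, had 24.1 to 47.0 per kb. The 300 bases densest in CpG, chr8:92460305-92460604 on the plus strand of GRCm38, held 48. The densest 300 bases of the joined region at Irx5 held the same number. Those lie inside the neighbouring noncoding gene Crnde and between peaks of control replicate 1. The stretch between Irx5 and Irx6 is printed with each CpG in capitals because it shows intergenic bases of promoter-like CpG density.
Irx5 to Irx6: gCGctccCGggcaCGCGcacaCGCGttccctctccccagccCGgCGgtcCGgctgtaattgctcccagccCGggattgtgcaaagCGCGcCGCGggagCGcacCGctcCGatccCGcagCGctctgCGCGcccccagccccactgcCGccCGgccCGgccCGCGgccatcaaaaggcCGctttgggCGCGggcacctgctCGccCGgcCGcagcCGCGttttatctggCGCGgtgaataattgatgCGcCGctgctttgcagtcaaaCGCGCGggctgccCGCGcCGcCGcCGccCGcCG

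Another intergenic place lay between Irx1 and Irx2, at chr13:72344625-72350401, 278 kb from the Irx2 start site. It had the highest fold enrichment of the 5 places in both ex14D libraries and in control replicate 2, but not in control replicate 1. Its fold enrichment was 2.25 and 7.08 in control and 26.1 and 29.7 in ex14D, beside 22.3 and 27 in ex14D at Irx1. No library had an EZH2 domain there. CpG stood at 11.6 per kb, close to the 8.40 per kb of chromosome 13, and the pseudogene Gm4052 overlaps it. The densest 300 bases, chr13:72346218-72346517 on the plus strand, held 16 CpG, many of them in a dinucleotide repeat, and are printed for comparison with the stretch on chromosome 8.
Irx1 to Irx2: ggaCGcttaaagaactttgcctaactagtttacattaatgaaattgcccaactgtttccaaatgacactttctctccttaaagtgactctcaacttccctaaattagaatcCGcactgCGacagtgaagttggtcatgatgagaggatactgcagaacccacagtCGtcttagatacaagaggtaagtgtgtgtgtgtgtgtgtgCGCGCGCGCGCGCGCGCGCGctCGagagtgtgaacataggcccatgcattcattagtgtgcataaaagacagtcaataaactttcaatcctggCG

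Another place of the IrxA locus, at chr13:72815765-72819493, overlaps the noncoding gene D730050B12Rik. It had fold enrichment of 1.85 and 1.81 in control, 1.95 and 2.61 in ex14D, and an EZH2 domain in control replicate 2 only. The other two lay between Irx3 and Irx5, at chr8:92068548-92068855 and chr8:92135589-92137240, with fold enrichment of 4.71 to 6.17 in control and 7.23 to 15.9 in ex14D and with 0 EZH2 domains.

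Most neighbours of the Irx genes were unmarked, as most promoters were. Within 1 Mb of a member start site on chromosome 13 lay 23 other genes, of which 5 were at least 2-fold over input in both control libraries and 4 in both ex14D libraries. On chromosome 8 there were 18, of which 3 were marked in control and 1 in ex14D. Over all promoters the marked share was 11.3% in control and 9.14% in ex14D. Of the 16 tested neighbours on chromosome 13, Gm20554 alone had a higher H3K27me3 count, at 1.03 with a standard error of 0.33 (edgeR's quasi-likelihood test, adjusted p = 0.0487), and it did not pass with DESeq2. Its EZH2 count was lower, at -1.44 with a standard error of 0.20 (edgeR's quasi-likelihood test, adjusted p = 0.00658). Gm20554 shares its start region and its peak with Irx2. Nkd2, a negative regulator of Wnt signalling 587 kb from Irx4, also had lower EZH2, at -0.37 (edgeR's quasi-likelihood test, adjusted p = 0.0415). With DESeq2, lower EZH2 was called at 1 neighbour on chromosome 13, against 2 by edgeR. Of the 12 tested neighbours on chromosome 8, 0 passed edgeR's quasi-likelihood test for H3K27me3, 1 had an unadjusted p under 0.05, and 0 passed with DESeq2. They include Crnde, the noncoding gene that starts 1676 bp from Irx5 in the opposite direction. Crnde had 103 and 101 CPM of H3K27me3 in control and 111 and 98.6 CPM in ex14D, well below Irx5 in each library.

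Other genes with related roles were compared from lists chosen with earlier results of these data known, and each list is described by its counts. By edgeR, 5.83% of all promoters tested had higher H3K27me3, as had 28.4% of those marked in control. Lower EZH2 was found at 7.88% of all genes tested. These shares stand beside the counts of every list. Of 25 genes of neural patterning, which divide the brain and the neural tube into domains, 19 had higher H3K27me3 by edgeR and 0 lower, with 0 lower at an unadjusted p under 0.05 and with DESeq2, and their median log2 fold change was 1.05. The largest rises were at Six3 (1.83 with a standard error of 0.21, adjusted p = 1.81e-06 by edgeR), a forebrain factor, and Nkx2-2 (1.72 with a standard error of 0.20, adjusted p = 2.53e-06 by edgeR), a factor of the ventral neural tube. EZH2 was lower by edgeR at 15 of 18 tested, with a median of -0.84, and the largest falls were at Gbx2 (-1.80) and Dbx1 (-1.26). With DESeq2 it was lower at 13. Of 18 genes of heart and limb development, 11 had higher H3K27me3 by edgeR and 0 lower, against 1 lower at an unadjusted p under 0.05 and 0 with DESeq2. The rises were largest at Gja1 (2.56), a gap junction protein, and Gata6 (1.37), and the median was 0.88. EZH2 was lower by edgeR at 5 of 11 tested, led by Tbx5 (-1.16) and Shox2 (-1.07), with a median of -0.57. With DESeq2 it was also lower at 5. The members' medians of 0.92 for H3K27me3 and -1.15 for EZH2 stand beside these values.

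The other TALE homeobox genes, relatives of the Irx genes by their homeodomain, moved in both directions. At least 2-fold H3K27me3 over input in both control libraries was found at 5 of the 12, beside 23 of the 25 neural and 13 of the 18 heart and limb genes. Of the 12, 9 were tested for H3K27me3, and by edgeR 2 were higher, Meis2 (1.32 with a standard error of 0.20, adjusted p = 5.6e-05) and Meis1 (0.80 with a standard error of 0.21, adjusted p = 0.0136), and 1 was lower, Pbx3 (-2.27 with a standard error of 0.35, adjusted p = 5.65e-05). Their median was -0.32. EZH2 was lower by edgeR at 3 of 7 with a median of -0.18, with the largest falls at Mkx (-0.50) and Meis2 (-0.38). With DESeq2 it was lower at 1, and 5 of the 12 are listed at 0.

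For each member, the gene outside the clusters with the most similar levels was found by Euclidean distance over the 6 H3K27me3 and input libraries on the log2(CPM + 1) scale. This was Atoh1 for Irx1 (distance 0.26), Gfra1 for Irx4 (0.276), Pantr2 for Irx3 (0.395), Sox1 for Irx5 (0.385), Gnal for Irx6 (0.228) and Gata6 for Irx2 (0.721). Sox1, a neural progenitor factor, had 522 and 334 CPM in control and 626 and 587 CPM in ex14D. Because the nearest genes were chosen on these libraries, the likeness, control libraries far apart included, follows from the choice.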

How the data were processed

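ChIP-seq reads were aligned by the authors with Bowtie to mm10 (GRCm38), and promoter reads were counted with htseq-count in a 1 kb window on the 5′ most TSS. The labels name Bowtie2. Counts were deposited by the authors as whole reads per gene, without normalization. Since EZH2 counts scaled with gene length, they are taken as reads on whole genes. For H3K27me3, MACS2 broad peaks were deposited with a score, a fold enrichment (ratio) and −log10 p and q values. The score was not used, and the control given to MACS2 is not given in the sources used here. Positions of EZH2 domains were deposited without a posterior probability. The 4 tables of H3K27me3 domains have coordinates of another assembly and were not used here.

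Rows for reads on no gene or on several genes stayed out of library sizes. They held 92.0% to 94.0% and 0.315% to 0.453% of H3K27me3 reads, 97.9% to 98.0% and 0.141% to 0.145% of input reads, and 33.8% to 34.9% and 21.2% to 21.9% of EZH2 reads. Genotypes were compared per antibody with edgeR 4.0.16 in R 4.3.3 (quasi-likelihood test after filterByExpr and TMM, with adjustment over all features by Benjamini-Hochberg and a threshold of 0.05). DESeq2 1.42.0 was an alternative. Standard errors are approximate. Replicates of a genotype differed by more than sampling noise (chi-square per degree of freedom 1.48 to 3.95). Of 24500 genes, 24347 were placed on GRCm38 with RefSeq transcripts. Checked on simulated data, the H3K27me3 test recovered 26.7% of 2-fold and 77.9% of 4-fold changes among 13774 promoters, and the EZH2 test 91.9% and 98.0% among 13328 genes, with 2.15% and 6.93% of calls false. In the simulation all features shared the same spread, and few changed, equally often up and down. The real libraries differ from that setting, so these rates need not hold for them. Python 3.11.15, pandas 2.3.3 and scipy 1.17.1 were used otherwise.

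Members and gene lists were chosen with earlier results of these data known. All 6 members are named, with, from each list and antibody, the 2 largest rises and the 2 largest falls past the threshold, every neighbour within 1 Mb by count, and the nearest gene by level. Intergenic places were chosen after their values were seen. Intervals cover counting error only.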

Additional observations from a re-analysis of the deposited data

How the results depend on the processing

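Of the 6 H3K27me3 and 3 EZH2 fold changes of members, all kept their direction under every scaling, filter, test, block and left-out library that was run. The number of Irx promoters with higher H3K27me3 was 4, and it was 1 with reads on genes as the only scaling and 0 to 4 with 1 library left out. The number of Irx genes with lower EZH2 was 3, and it was 1 with the DESeq2 test and 0 to 3 with 1 library left out. Over all promoters, 867 were higher and 483 lower. With reads on genes alone these were 398 and 2130, with the DESeq2 test 657 and 266, and with 1 library left out 183 to 797 and 55 to 610. Over all genes, EZH2 was higher at 7 and lower at 1056. Higher EZH2 was called at 47 with reads on genes alone, at 2 with DESeq2 size factors, at 33 with all counted reads, at 0 with the DESeq2 test (7 at an unadjusted p under 0.05) and at 0 to 81 with 1 library left out, where lower EZH2 was called at 0 to 1561. Without control replicate 1, 0 genes were higher or lower by edgeR and 1372 were lower at an unadjusted p under 0.05, and without control replicate 2 these were 0 and 1300. A left-out library leaves a lone one, assumed to vary like the other group.

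Replicate numbers did not pair the libraries (correlation of deviations -0.103 for H3K27me3 and -0.0323 for EZH2). With the replicate number as a block, 765 promoters were higher and 411 lower, 3 Irx promoters were higher, and EZH2 was higher at 3 genes and lower at 852. With the H3K27me3 pairing crossed, an alternative chosen after seeing the data, the block gave 1183 promoters higher and 802 lower, with 5 Irx promoters higher, Irx2 among them.

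H3K27me3 peak cover of the IrxB locus in control was 59.9 kb, and 26.8 kb with peaks of q under 0.001, while in ex14D it was 59.7 kb either way. The control libraries had fewer counted reads, and an effect of depth was not tested. EZH2 domain cover of the IrxB locus in control was 37.5 kb, and 39.5 kb with 250 kb outside the cluster. With 1 library left out, the covers of the IrxA and IrxB loci by H3K27me3 peaks ranged from 62.4 to 89.1 and 53.1 to 66.7 kb in control and from 66.1 to 80.3 and 51.8 to 67.6 kb in ex14D. Depth limits Irx2 most, with 22 to 93 H3K27me3 reads and 0 or 1 input read.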
